A study of Mus musculus with 2 samples.

Results

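The Wt1 locus was taken as every called accessible region that overlapped the Wt1 gene body or the 50 kb on either side of it on mouse chromosome 2 (build mm10, GENCODE M21 annotation). This window held 45 of the 289587 regions called in the series, 23 of 159560 in the Enl-WT library and 22 of 130027 in the Enl-T1 library. Regions of the 2 libraries that overlapped were joined, which left 25 elements. Of these, 18 were called in both libraries, 4 in Enl-WT alone and 3 in Enl-T1 alone. Each element is named below by the distance in kb of its centre from the start of the main Wt1 transcript at chr2:105126797, with a minus sign upstream and a plus sign in the direction of transcription.

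Accessible chromatin was profiled nucleus by nucleus with Tn5 transposase, which inserts sequencing tags where DNA is open (snATAC-seq), in kidneys of E15.5 mouse embryos. The Enl-WT kidneys were Enl+/+ Wt1GFPCre/+ and the Enl-T1 kidneys were Enl flox-T1/+ Wt1GFPCre/+, so that Cre recombination switched 1 Enl allele to the T1 form, a small insertion in the chromatin reader ENL that is found in Wilms tumours. Both groups therefore carried 1 Wt1 allele that is inactivated by an inserted GFP-Cre fusion, and 1 functional allele. The inserted cassette is not part of mm10 and was not measured. Cre was driven by the Wt1 regulatory elements themselves, which act in the nephron and stromal lineages and not in the ureteric epithelium or the endothelium. Each group was 1 library, the number of embryos behind each was not given in the sources used here, and no difference below has a replicate check or a test. The intervals are exact 95% Poisson or binomial intervals and cover counting error only.

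Wt1 encodes a zinc finger transcription factor and was identified as a tumour suppressor gene of Wilms tumour, the embryonal kidney tumour of childhood. Without it the ureteric bud does not grow out and the metanephric mesenchyme dies. It is active in nephron progenitors, the SIX2-positive mesenchyme that gives rise to the nephron, is shut off along the tubule, and remains high in podocytes, the epithelial cells of the glomerular filter. The antisense RNA gene Wt1os starts next to it and runs in the opposite direction, through the upstream part of the window. ENL binds acetylated histones and recruits transcription elongation factors.

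The deposited tables held 138176616 counts in 9628 barcodes for Enl-WT and 110265593 counts in 13376 barcodes for Enl-T1. After barcodes with 2000 to 100000 counts were kept, 9472 and 12635 nuclei remained, with a median of 14789.5 and 8753 counts. The libraries shared 169 barcode sequences. Levels are given as CPM, in which the counts of a class or cluster of nuclei in the 110706 regions called in both libraries are scaled to sum to 1000000, and counts were halved for the intervals, since most values were even and each fragment has 2 ends. Nuclei were clustered without the regions within 1 Mb of Wt1, and clusters were named from marker genes that did not include Wt1. Enl-WT had 1740 nephron progenitor-like nuclei and Enl-T1 had 4261, and different clusters held them. Cluster 2 held 1724 of those of Enl-WT, whereas clusters 0 and 8 held 3104 and 1084 of those of Enl-T1. Cluster 0 was below cluster 2 for every progenitor marker but Tmem100, with Six2 at 55.2 against 69.0 CPM. It was above cluster 2 for every early nephron epithelium marker but Lhx1 and Fgf8, with Cdh6 at 95.4 against 39.2 CPM. The progenitor-like nuclei compared below thus differed in marker levels as well as in library.

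The window was a chain of elements from 49.4 kb upstream to 94.2 kb downstream of the start. The promoter element (chr2:105126049-105127198) covered the first part of exon 1 of Wt1 and the start of Wt1os, so accessibility for the 2 genes cannot be told apart there. Within the gene, the +3.7 kb element lay in intron 1 over the starts of the shorter annotated transcripts at 105130800 and 105130883, and the +5.7 kb element reached into exon 2. The +7.7, +12.3 and +15.8 kb elements lay in intron 3, the +36.4 kb element over exon 6 and another annotated start at 105162808, and the +45.7 kb element over exon 10. Upstream, 10 elements from -49.4 to -3.7 kb lay within Wt1os, in its introns or exons, and downstream 7 elements from +52.0 to +94.2 kb were intergenic. The stretches of 300 bases below, read from the mm10 RefSeq genome on the plus strand, are shown because the levels turn on these elements: the promoter stretch ends at the base before the first annotated start of Wt1, the +73.7, +94.2 and -29.3 kb elements were higher in Enl-T1 progenitor nuclei, and the -37.8 kb element was lower there. Capitals mark every match to 13 short motifs given after them.

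Wt1 promoter, chr2:105126229-105126528: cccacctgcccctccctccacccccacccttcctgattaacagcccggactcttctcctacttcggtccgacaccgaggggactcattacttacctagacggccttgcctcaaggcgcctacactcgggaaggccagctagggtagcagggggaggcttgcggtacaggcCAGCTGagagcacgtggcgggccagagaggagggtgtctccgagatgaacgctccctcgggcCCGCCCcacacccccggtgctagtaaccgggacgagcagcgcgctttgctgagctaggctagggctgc
+73.7 kb element, chr2:105200238-105200537: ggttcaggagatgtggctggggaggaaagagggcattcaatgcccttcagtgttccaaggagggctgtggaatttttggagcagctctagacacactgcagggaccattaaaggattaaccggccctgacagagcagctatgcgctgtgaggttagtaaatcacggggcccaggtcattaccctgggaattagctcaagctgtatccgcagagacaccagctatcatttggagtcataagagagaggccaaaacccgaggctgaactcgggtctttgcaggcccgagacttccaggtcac
+94.2 kb element, chr2:105220853-105221152: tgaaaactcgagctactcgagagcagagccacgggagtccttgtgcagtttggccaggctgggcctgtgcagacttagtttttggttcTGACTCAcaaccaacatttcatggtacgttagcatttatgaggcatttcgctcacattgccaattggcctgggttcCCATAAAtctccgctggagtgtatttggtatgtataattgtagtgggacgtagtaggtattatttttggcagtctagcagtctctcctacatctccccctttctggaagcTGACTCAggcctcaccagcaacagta
-29.3 kb element, chr2:105097410-105097709: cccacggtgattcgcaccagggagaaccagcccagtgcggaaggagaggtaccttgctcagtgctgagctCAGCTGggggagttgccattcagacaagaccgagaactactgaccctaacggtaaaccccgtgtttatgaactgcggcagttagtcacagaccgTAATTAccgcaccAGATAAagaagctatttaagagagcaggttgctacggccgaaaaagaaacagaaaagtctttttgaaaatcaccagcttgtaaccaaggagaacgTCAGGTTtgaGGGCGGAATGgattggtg
-37.8 kb element, chr2:105088974-105089273: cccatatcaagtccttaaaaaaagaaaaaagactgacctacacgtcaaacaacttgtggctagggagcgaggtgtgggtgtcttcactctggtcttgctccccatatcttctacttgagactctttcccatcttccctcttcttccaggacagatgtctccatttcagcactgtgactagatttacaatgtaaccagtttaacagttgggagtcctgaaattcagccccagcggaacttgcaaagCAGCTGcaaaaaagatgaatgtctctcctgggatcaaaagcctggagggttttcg

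The motifs were searched on both strands of the central 300 bases of each element (for the promoter, the bases printed). For zinc finger factors they were GCGTGGG (WT1 and EGR factors) and GGGCGG (SP and KLF factors). For homeodomain and paired factors they were TCANGTT (SIX2), TTTATNG (posterior HOX factors), TAATTA (LIM homeodomain factors) and GTCACGC (PAX2 and PAX8). For other factors they were TGCTGAC (MAF factors), TGTTTAC (forkhead factors), GGAATG (TEAD factors), CTTTGA (LEF and TCF factors), TGANTCA (AP-1) and CAGCTG (the E-box of TCF21-type factors), and AGATAA served for the GATA family. The +73.7 kb stretch held none of these motifs. The +94.2 kb stretch held 2 AP-1 matches and 1 posterior HOX match, and those motifs were present in 10.1% and 15.4% of 110660 stretches of the same length over the shared regions. The -29.3 kb stretch held 1 match each to the SIX2, LIM, TEAD, E-box, GATA and SP motifs, of which the SP and TEAD matches overlap. The SIX2 motif was present in 13.8% and the LIM motif in 7.42% of all stretches. The promoter stretch held 1 SP match and 1 E-box match, and the -37.8 kb stretch 1 E-box match. Over all 25 elements the WT1 and EGR motif was found once, at +52.0 kb, against 3.27% of all stretches, and the PAX motif in 0, against 1.44%. Posterior HOX matches lay in 4 elements (-48.4, -8.9, +55.7 and +94.2 kb) and LEF and TCF matches in 7, against 15.4% and 19.3% of all stretches. A match describes letters in a window and is not a measured binding site.

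The question addressed first was where the locus was open. The sum over the 18 elements called in both libraries was highest in the nephron lineage. In Enl-WT it was 251 CPM (95% interval 243 to 260) in nephron progenitor-like nuclei and 263 CPM (248 to 278) in early nephron epithelium-like nuclei (cluster 15, 613 nuclei), whose leading genes by fold include Lmx1b and Wt1 itself. Of the markers of that class, Wnt4 was highest in cluster 15, at 86.4 CPM. Each of the others was higher in some other cluster. Cdh6 was at 54.9 CPM against 95.4 CPM in cluster 0, and Dll1 at 25.0 CPM against 54.0 CPM in cluster 16. The name early nephron epithelium-like is therefore used below as a label only. The sum was 255 CPM (231 to 280) in cluster 18 (314 nuclei). All 8 podocyte markers were raised in cluster 18, among them Nphs1, which encodes nephrin of the slit diaphragm, at 76.0 CPM against 37.5 CPM in cluster 2. None of them was among its 10 leading genes, and clusters 0, 8 and 15 likewise had none of their own markers among theirs. The leading genes of cluster 18 included the steroidogenic gene Cyp11a1, and Star, another steroidogenic gene, was at 31.002 CPM against 6.36 CPM in cluster 2. The steroidogenic regulator Nr5a1 was at 6.26 CPM against 11.7 CPM in cluster 2, and Hsd3b1 was at 0. The cluster is therefore called by its number. These 3 neighbours in the order did not differ beyond their intervals.

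Stroma-like nuclei followed at 154 CPM (148 to 159), and proximal tubule-like and distal tubule or loop-like nuclei at 115 (105 to 125) and 112 CPM (105 to 120), with intervals that overlap. Ureteric epithelium-like and endothelial-like nuclei, where Cre is not active, were at 67.8 (61.4 to 74.6) and 63.4 CPM (56.3 to 71.3), which did not differ beyond their intervals, and immune-like nuclei were lowest at 29.97 CPM (16.4 to 50.3). In Enl-T1 the order among classes with at least 100 nuclei was nephron progenitor-like at 262 CPM (255 to 269), distal tubule or loop-like at 183 (157 to 212), stroma-like at 130 (126 to 136), endothelial-like at 72.0 (60.6 to 84.9), ureteric epithelium-like at 65.3 (59.7 to 71.4) and immune-like at 40.9 (25.5 to 62.2). Endothelial-like and ureteric epithelium-like nuclei again did not differ beyond their intervals. All 314 nuclei of cluster 18 came from Enl-WT, and early nephron epithelium-like and proximal tubule-like nuclei numbered 10 and 5 in Enl-T1, so those levels were not compared between libraries.

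**Figure D1:**
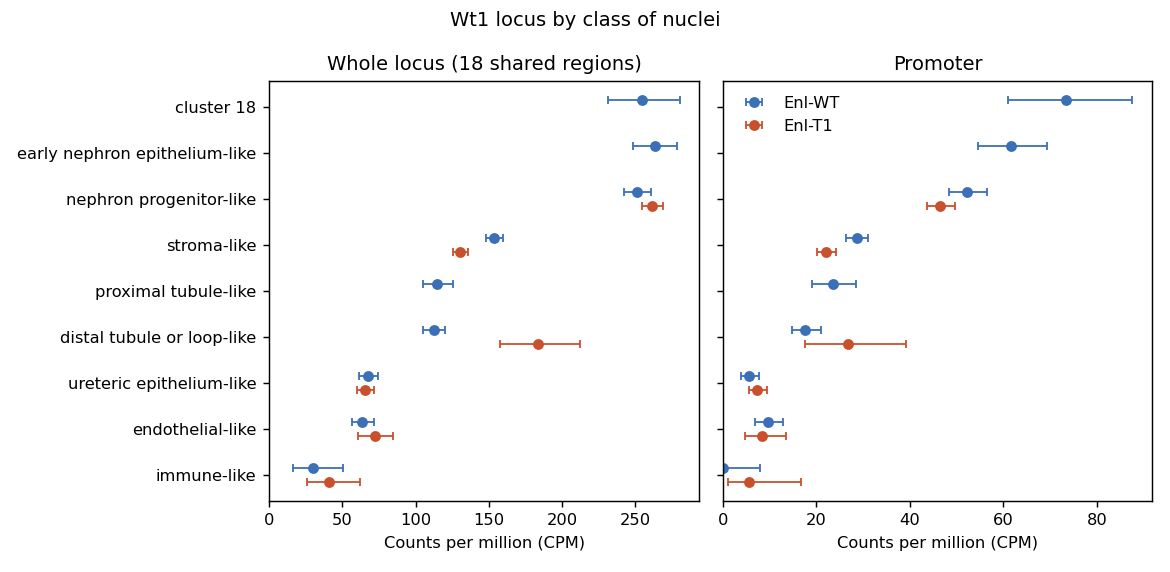
Level of the Wt1 locus (left, sum of the 18 elements called in both libraries) and of the Wt1 promoter element (right) in CPM for each class of nuclei, with 1 point per library and exact 95% Poisson intervals. Nephron progenitor-like nuclei sit at 251 and 262 CPM and ureteric epithelium-like nuclei at 67.8 and 65.3 CPM for the locus.

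The promoter separated the classes further than the sum did. In Enl-WT the promoter element was at 73.3 CPM (60.9 to 87.5) in cluster 18, 61.6 (54.6 to 69.3) in early nephron epithelium-like, and 52.3 (48.3 to 56.5) in nephron progenitor-like nuclei. The level was 28.6 (26.3 to 31.1) in stroma-like, 23.5 (19.1 to 28.6) in proximal tubule-like and 17.6 CPM (14.7 to 20.9) in distal tubule or loop-like nuclei. It was at 9.59 CPM (6.94 to 12.9) in endothelial-like and 5.51 CPM (3.82 to 7.70) in ureteric epithelium-like nuclei, and 0 counts were seen in 102 immune-like nuclei, which allows a level of up to 7.90 CPM. Over ureteric epithelium-like nuclei of the same library, which serve as the background, this was 13.3-fold in cluster 18, 11.2-fold in early nephron epithelium-like, 9.48-fold in nephron progenitor-like and 5.19-fold in stroma-like nuclei. In Enl-T1 the promoter was 6.33-fold over ureteric epithelium-like nuclei in nephron progenitor-like and 3.02-fold in stroma-like nuclei, where the ureteric level itself was 7.34 CPM (5.54 to 9.55).

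In the same comparison 10 of 13 elements with at least 200 counts were over 2-fold higher in nephron progenitor-like than in ureteric epithelium-like nuclei of Enl-WT, against 24.3% of all regions, and 0 were over 2-fold lower, against 13.8%. In Enl-T1 this was 15 of 17, against 23.4%, and 0 lower, against 14.7%. In stroma-like nuclei 8 of 12 elements were over 2-fold higher in Enl-WT (31.5% of all regions) and 2 were lower (16.2%), and in Enl-T1 7 of 12 were higher (28.5%) and 1 was lower (18.0%). In early nephron epithelium-like nuclei of Enl-WT 4 of 7 were higher (11.1%), and in cluster 18 both of the 2 elements with enough counts were (3.99%). The 200 counts were summed over the 2 classes compared, so an element could enter through the class where it was high. The promoter entered for cluster 18 on 246 counts against 68, and the +83.5 kb element for Enl-WT progenitors on 216 against 10. The shares of all regions used the same filter. These tallies describe the elements that entered and not the whole locus. The -25.8 kb element was the most unequal in progenitors of Enl-WT, at 9.66 CPM against 0.405 CPM in ureteric epithelium-like nuclei. The ureteric value rests on 5 counts, so the log2 difference of 4.58 has a wide interval (2.86 to 7.18). Endothelial-like nuclei of Enl-WT, at 3.90 CPM, were also above the ureteric level there. The exceptions were upstream. The -36.6, -29.3 and -17.9 kb elements were at 11.6, 15.0 and 10.4 CPM in ureteric epithelium-like nuclei of Enl-WT and made up 54.5% of all locus counts there (41.6% in Enl-T1), above the promoter. In endothelial-like nuclei the -17.9 kb element was the highest, at 11.9 CPM in Enl-WT and 18.8 CPM in Enl-T1. The leading elements of ureteric epithelium-like nuclei were thus not those of progenitors, while the promoter came second in endothelial-like nuclei of both libraries. In progenitors the promoter, the +5.7 kb and the +80.1 kb elements led in both libraries, with 43.5% (Enl-WT) and 37.0% (Enl-T1) of the sum.

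Across progenitor-like nuclei, early nephron epithelium-like nuclei and cluster 18 of Enl-WT the sums did not differ beyond their intervals, but single elements did. The -29.3 kb element went from 11.4 CPM in nephron progenitor-like nuclei to 22.5 in early nephron epithelium-like nuclei and 38.8 CPM in cluster 18, where it was second to the promoter and 1.77 higher on the log2 scale than in progenitors (95% interval 1.32 to 2.20). It was at 2.18 CPM in stroma-like nuclei. The +3.7 kb element, over the start of the shorter transcripts, went from 14.9 to 22.2 and 30.4 CPM over the same classes, a log2 difference of 1.02 (0.55 to 1.48) between cluster 18 and progenitors, while the promoter differed by 0.49 (0.20 to 0.77). These were the 2 of 14 elements over 2-fold higher in cluster 18, against 5.64% of all regions. Another 4 of 14, or 28.6%, were over 2-fold lower, against 21.2% of all regions, a share near the background. The -37.8 kb element was at 5.07 against 13.6 CPM, the -12.0 kb element at 4.47 against 10.7 CPM, the +80.1 kb element at 9.54 against 24.4 CPM and the +83.5 kb element at 2.38 against 8.85 CPM. The cluster 18 values of these elements rest on 17, 15, 32 and 8 counts. From progenitors to early nephron epithelium-like nuclei 0 of 15 elements were over 2-fold higher (3.74% of all regions), and only the -37.8 kb element was over 2-fold lower (8.01%), at 4.41 against 13.6 CPM.

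**Figure D2:**
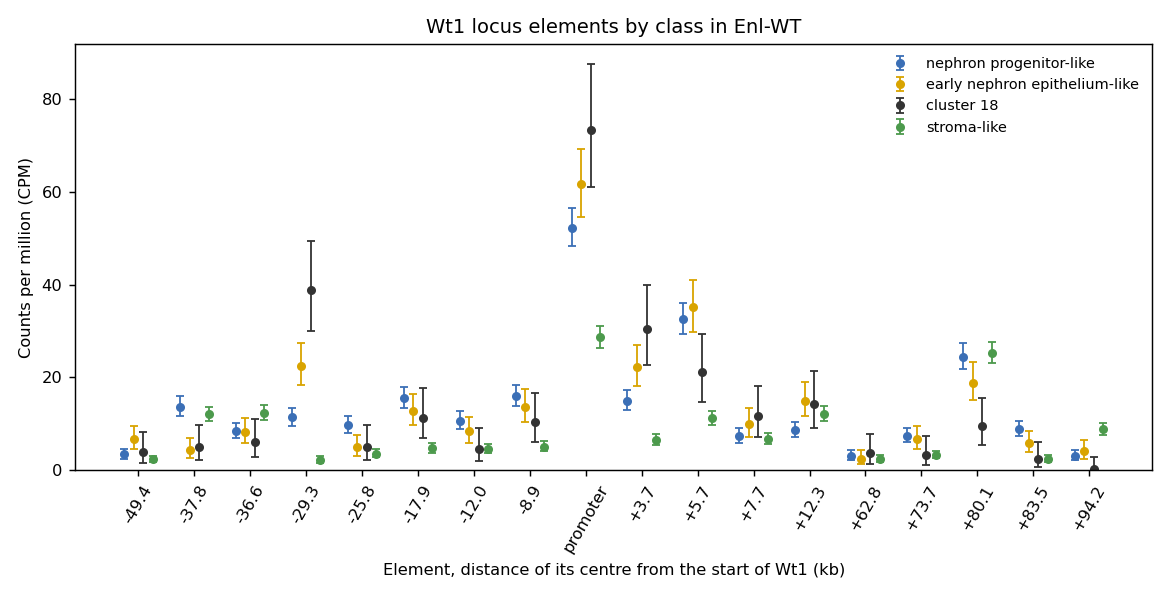
Level of each element called in both libraries, in CPM, in 4 sets of Enl-WT nuclei (nephron progenitor-like, early nephron epithelium-like, cluster 18 and stroma-like), ordered along the chromosome, with exact 95% Poisson intervals. The -29.3 kb element lies at 11.4 CPM in progenitors and 38.8 CPM in cluster 18, and the +80.1 kb element at 24.4 and 9.54 CPM.

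Levels varied among the stromal clusters. Cluster 10 (779 nuclei from the Enl-WT library and 184 from Enl-T1), led by Gbgt1, Tcf23, Ptgfr and the mesenchymal factor Twist1, had a locus level of 238 CPM (224 to 252) in Enl-WT and 225 CPM (193 to 262) in Enl-T1. The promoter there was at 45.7 and 35.0 CPM. These levels are near those of progenitors, whereas cluster 1 was at 101 and 102 CPM. Cluster 12, held mostly by Enl-T1 (647 nuclei), was at 90.2 CPM (78.4 to 103). The +80.1 kb element was at 45.9 CPM (40.0 to 52.4) in cluster 10 of Enl-WT and 45.1 CPM (31.1 to 63.1) in that of Enl-T1, a level within the interval of the promoter in the same Enl-WT nuclei. The +94.2 kb element was at 21.1 CPM in cluster 10 of Enl-WT, against 3.13 CPM in progenitor cluster 2 of the same library.

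The comparison of Enl-T1 with Enl-WT asks whether mutant ENL changes accessibility at the locus of the gene whose elements drive Cre. In nephron progenitor-like nuclei the locus sum was 251 CPM in Enl-WT and 262 CPM in Enl-T1, a log2 ratio of 0.06 (95% interval -0.01 to 0.12). The regions called in Enl-T1 were narrower, with 17.2 kb covered against 18.6 kb, and per kb the ratio was 0.17 (15.2 against 13.5 CPM per kb). The promoter was at 52.3 CPM in Enl-WT and 46.5 CPM in Enl-T1, which is -0.17 (-0.31 to -0.02) as a log2 ratio. This lay at percentile 33.0 of all regions and was 0.03 per kb of called width (1147 and 1000 bases). Thus neither the sum nor the promoter passed 1.5-fold.

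Single elements differed by more. Of the 18 elements in both libraries, all of which had enough counts, 4 were over 1.5-fold higher in Enl-T1 progenitor nuclei, or 22.2%, against 12.0% of 73477 regions. Another 2 were over 1.5-fold lower, or 11.1%, against 12.6% of all regions, a share near the background. The median log2 ratio was -0.13 over the 18 elements and 0.01 over all regions.

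The higher elements were the outermost on each side, at -49.4 and +94.2 kb, and those at +73.7 and -29.3 kb. The +80.1 and +83.5 kb elements, between the last 2 downstream, were not higher, at log2 ratios of -0.24 and -0.13. The -49.4 kb element (chr2:105077030-105077815) was at 3.40 CPM in Enl-WT (83 counts) and 13.6 CPM in Enl-T1 (547 counts), a log2 ratio of 2.00 (1.52 to 2.51) that was above 99.1% of all regions. The +94.2 kb element (chr2:105220368-105221619) was at 3.11 CPM (76 counts) and 13.8 CPM (558 counts), a log2 ratio of 2.15 (1.66 to 2.68), above 99.4% of regions. These were the largest ratios among the 18 elements, 3.99-fold and 4.45-fold. The +73.7 kb element (chr2:105199928-105201021) was at 7.41 and 18.6 CPM, a log2 ratio of 1.32 (0.99 to 1.67, percentile 97.1). The -29.3 kb element (chr2:105096985-105098032) was at 11.4 and 20.6 CPM, a log2 ratio of 0.85 (0.57 to 1.14, percentile 93.1). In Enl-WT nuclei the -29.3 kb element was higher in early nephron epithelium-like nuclei and cluster 18 than in progenitors, as above. The -49.4 kb element was at 6.73 CPM (61 counts) in early nephron epithelium-like nuclei, a log2 difference of 0.98 (0.26 to 1.69) from progenitors, and at 3.88 CPM in cluster 18. The +73.7 kb element was at 6.73 and 3.28 CPM in these 2 sets. In early nephron epithelium-like nuclei the +94.2 kb element was at 4.08 CPM, against 3.11 CPM in progenitors (0.39, -0.50 to 1.23).

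The lower elements were both upstream. The -37.8 kb element (chr2:105088530-105089519) was at 13.6 CPM in Enl-WT and at 5.70 CPM in Enl-T1, a ratio of -1.26 on the log2 scale (-1.61 to -0.91), or -0.92 per kb of called width (970 and 770 bases). The -25.8 kb element was at 9.66 and 5.78 CPM, a log2 ratio of -0.74 (-1.12 to -0.36), or -0.58 per kb. Both elements were also lower in early nephron epithelium-like nuclei of Enl-WT than in its progenitors, at 4.41 CPM (-37.8 kb) and 4.96 CPM (-25.8 kb). The -36.6 kb element, whose regions begin within 300 bases of the end of the -37.8 kb element, was at 8.44 and 6.40 CPM and did not pass 1.5-fold. The other 11 elements, the promoter among them, had log2 ratios between -0.36 (+12.3 kb) and 0.39 (-12.0 kb). 

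**Figure D3:**
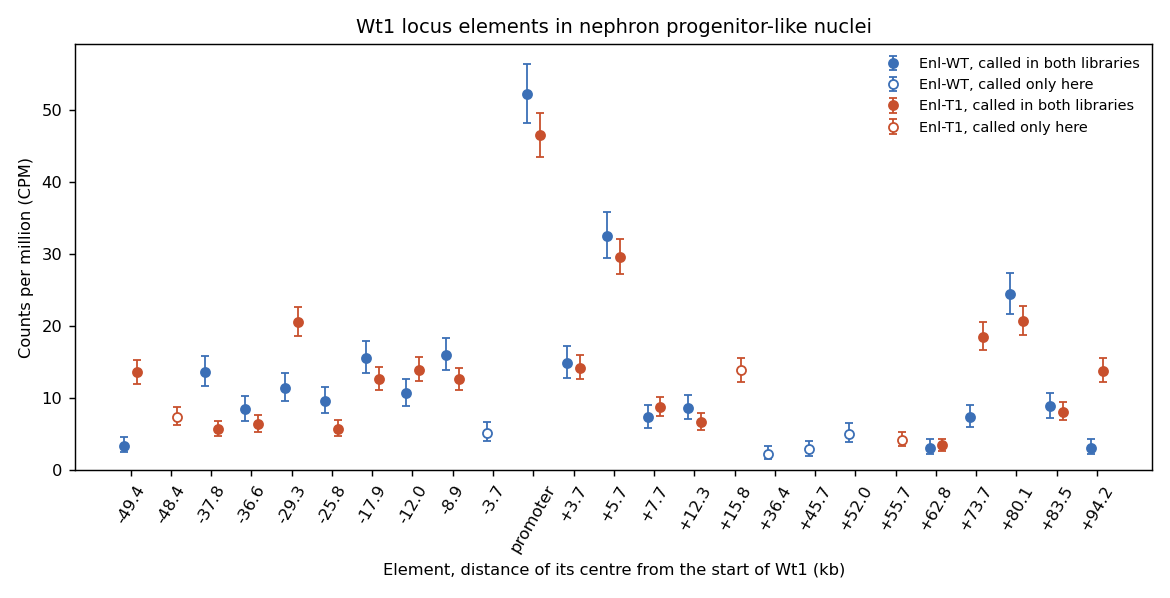
Level of all 25 elements in CPM in nephron progenitor-like nuclei of Enl-WT and Enl-T1, ordered along the chromosome, with exact 95% Poisson intervals and open points for elements called in 1 library. The -49.4 and +94.2 kb elements lie at 3.40 and 3.11 CPM in Enl-WT and at 13.6 and 13.8 CPM in Enl-T1, and the promoter at 52.3 and 46.5 CPM.

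Since different clusters held the progenitor-like nuclei of the 2 libraries, each Enl-T1 cluster was set against Enl-WT cluster 2. The log2 ratio at -49.4 kb was 2.03 (1.54 to 2.55) in cluster 0 and 1.92 (1.34 to 2.51) in cluster 8. At +94.2 kb it was 2.28 (1.78 to 2.82) and 1.79 (1.17 to 2.42), and at +73.7 kb 1.41 (1.07 to 1.77) and 1.08 (0.64 to 1.53). These 3 elements were past 1.5-fold in both clusters. At -29.3 kb it was 0.96 (0.67 to 1.26) and 0.58 (0.18 to 0.97), so that the second value fell just short of 1.5-fold. The lower elements were less even. The log2 ratio at -37.8 kb was -1.78 (-2.23 to -1.34) in cluster 0 and -0.48 (-0.96 to -0.02) in cluster 8, and at -25.8 kb -0.97 (-1.41 to -0.54) and -0.28 (-0.83 to 0.24). The promoter was at 48.8 CPM in cluster 0 and 39.6 CPM in cluster 8, against 52.3 CPM in cluster 2 of Enl-WT. The locus sum was 259 and 270 CPM against 252 CPM.

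**Figure D4:**
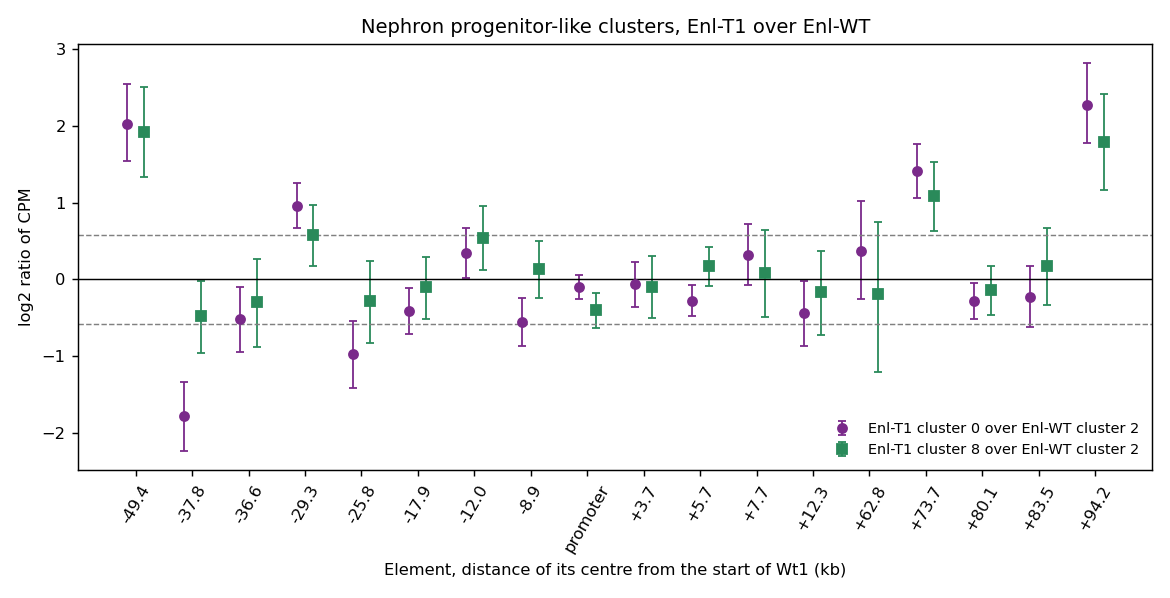
Log2 ratio of CPM between Enl-T1 cluster 0 or 8 and Enl-WT cluster 2, all nephron progenitor-like, for each element called in both libraries, with exact 95% Poisson-based intervals. The -49.4, +73.7 and +94.2 kb elements lie above 1 in both clusters, and the -37.8 kb element lies at -1.78 in cluster 0 and -0.48 in cluster 8.

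The share of nuclei with a count was compared after each nucleus was thinned to 2500 fragments, because the median depth of progenitor-like nuclei was 7331 fragments (Enl-WT) and 5028 fragments (Enl-T1). At the locus it was 45.0% (42.6 to 47.4) for Enl-WT nuclei and 46.6% (45.1 to 48.2) for Enl-T1 nuclei, against 79.9% and 69.1% before thinning. Ureteric epithelium-like nuclei were at 15.9% and 14.4%, with median depths of 7251 and 4690 fragments, and immune-like nuclei at 5.56% and 5.51%. For the -49.4 kb element the thinned share was 1.12% (0.673 to 1.74) for Enl-WT and 2.98% (2.48 to 3.55) for Enl-T1 progenitor-like nuclei, against 0.692% and 0.696% in ureteric epithelium-like nuclei. For the +94.2 kb element it was 1.23% (0.765 to 1.88) and 3.15% (2.64 to 3.74), against 0.577% and 0.380%. In progenitor-like nuclei the intervals of the 2 libraries were apart for both elements, and for the locus they overlapped.

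In stroma-like nuclei the locus level was 154 CPM in Enl-WT and 130 CPM in Enl-T1. The log2 ratio was -0.24 (-0.31 to -0.16), or -0.13 per kb, and the promoter at 28.6 and 22.1 CPM, a log2 ratio of -0.37 (-0.55 to -0.19), or -0.17 per kb. Both ratios moved with the makeup of the class. Without clusters 9, 10 and 12, which were held mainly by 1 library, they were 0.01 and 0.02. Of 16 elements with enough counts 1 was over 1.5-fold higher, against 7.16% of 82178 regions, and 1 was lower, against 5.35%. The -17.9 kb element was at 4.67 and 7.18 CPM, a log2 ratio of 0.62 (0.23 to 1.02), and the +12.3 kb element at 12.1 and 7.41 CPM, a log2 ratio of -0.71 (-1.02 to -0.41) that was -0.33 per kb, since its called width was 2005 bases in Enl-WT and 1536 in Enl-T1. The elements that were higher in progenitors were at 2.31 and 2.50 CPM (-49.4 kb), 2.18 and 2.98 CPM (-29.3 kb), 3.29 and 3.78 CPM (+73.7 kb) and 8.76 and 7.53 CPM (+94.2 kb) in stroma-like nuclei, with intervals of the ratio that include 0. Within the other 4 stromal clusters the locus log2 ratio was 0.02 (-0.18 to 0.21) in cluster 1, -0.04 (-0.22 to 0.14) in cluster 4, -0.29 (-0.46 to -0.11) in cluster 5 and 0.32 (0.01 to 0.64) in cluster 6, the latter led by the predicted genes Gm10800 and Gm10801. The +94.2 kb log2 ratio was 1.04 (0.11 to 1.98) in cluster 1, on 41 and 45 counts. It was -0.18, -0.04 and -1.22 in clusters 4, 5 and 6, with intervals that include 0. Over all stroma-like nuclei it ranged from -0.25 to 0.23 across 14 alternatives.

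In ureteric epithelium-like nuclei, which lack Cre, the locus was at 67.8 CPM in Enl-WT and 65.3 CPM in Enl-T1. The log2 ratio was -0.05 (-0.24 to 0.14), or 0.06 per kb. Only 3 elements had enough counts. Of these 0 were over 1.5-fold higher (3.64% of all regions) and the -29.3 kb element, at 15.0 and 9.92 CPM, was lower (2.71% of all regions), opposite in direction to progenitors. Clusters 3 and 11 made up this class, with 719 and 165 nuclei in Enl-WT and 1003 and 708 in Enl-T1. Within them the -29.3 kb log2 ratio was -0.36 (-0.87 to 0.16) and -0.98 (-2.07 to 0.14), so neither cluster alone was beyond its counting interval. In endothelial-like nuclei the log2 ratio of the locus was 0.18 (-0.12 to 0.48) and no element had 200 counts. In distal tubule or loop-like nuclei, with 1045 nuclei in Enl-WT and 206 in Enl-T1, the locus was at 112 and 183 CPM. There the -49.4 kb element was at 4.84 and 13.9 CPM, the +73.7 kb element at 5.85 and 18.02 CPM and the +94.2 kb element at 3.97 and 9.27 CPM. Each was higher in Enl-T1, as was the locus sum. In Enl-WT these values rest on 72, 87 and 59 counts, and no element of the 3 reached 200 counts over both libraries. Clusters 13 and 16 made up this class, with 597 and 448 nuclei in Enl-WT and 51 and 155 in Enl-T1, so their mix differed between the libraries. In cluster 13 the locus was at 71.1 CPM (63.1 to 79.9) in Enl-WT and 104 CPM (66.3 to 155) in Enl-T1. In cluster 16 it was at 161 CPM (148 to 175) and 207 CPM (176 to 243). The level was thus higher in Enl-T1 within each cluster as well, beyond the intervals in cluster 16 only. The part of the mix in the result was not tested.

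Elements called in 1 library cannot be compared between libraries, since counts of the other library over them were not in the tables used here. Calls in 1 library were not rare, at 30.003% of Enl-WT and 13.4% of Enl-T1 peaks. Of the Enl-T1 elements, the +15.8 kb element in intron 3 (chr2:105142148-105143019) was at 13.9 CPM (12.3 to 15.6) in progenitor-like nuclei, about as high as the -49.4 and +94.2 kb elements there, against 2.28 CPM in stroma-like and 0.794 CPM in ureteric epithelium-like nuclei. The -48.4 kb element, next to the -49.4 kb element, was at 7.42 CPM (6.27 to 8.70) in progenitor-like and 4.53 CPM in stroma-like nuclei, and the +55.7 kb element at 4.24 and 4.33 CPM. Of the Enl-WT elements, the +52.0 kb element, with the WT1 and EGR motif, was at 19.4 CPM (13.3 to 27.3) in cluster 18, against 5.08 CPM in progenitor-like, 2.13 CPM in stroma-like and 0.892 CPM in ureteric epithelium-like nuclei. The -3.7 kb element was at 5.20 CPM in progenitor-like, 6.20 CPM in stroma-like and 8.05 CPM in cluster 18 nuclei. The +36.4 kb element was at 2.29 CPM in progenitor-like and 6.56 CPM in cluster 18 nuclei. The +45.7 kb element was highest in endothelial-like nuclei, at 11.9 CPM, against 2.87 CPM in progenitor-like nuclei.

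Genes and regions around the window were read in the same way. Of 17 protein-coding genes with a start within 1 Mb of Wt1, 13 had a start region with enough counts in progenitor-like nuclei, and 0 were past 1.5-fold in either direction, with a median log2 ratio of 0.11. The values ran from -0.14 (Them7) to 0.27 (Eif3m, a translation initiation factor subunit, 0.06 to 0.48), with D430041D05Rik, Hipk3, Cstf3, Tcp11l1, Depdc7, Qser1, Prrg4, Rcn1, Elp4, Immp1l and Dnajc24 between them. Elp4 and Immp1l share a start region. Pin1rt1, Ccdc73, Gm11060 and Pax6 had no start region called in both libraries. Of 94 other regions within 1 Mb, 65 had enough counts in progenitor-like nuclei, of which 6 were over 1.5-fold higher and 8 lower, beside 12.0% and 12.6% of all regions, and their summed log2 ratio was 0.02 (-0.02 to 0.05).

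The promoters of genes that work with or under WT1 were read from 3 lists. Of the WT1 partners, 5 of 6 had enough counts in progenitor-like nuclei and 0 passed 1.5-fold (median 0.00). Pawr, a pro-apoptotic protein that binds WT1, had a log2 ratio of 0.47 (0.33 to 0.62) and Amer1, a Wnt regulator and Wilms tumour gene, 0.03. Wtip, a LIM protein named for its binding to WT1, was at -0.12 and Basp1, a corepressor, at -0.02. Of the WT1 targets in progenitors, 9 of 10 had enough counts, 1 was higher and 0 lower (median 0.01). Wnt4, which drives the conversion of mesenchyme to epithelium, was at 26.7 and 47.4 CPM, a log2 ratio of 0.83 (0.65 to 1.02). Spry1, an inhibitor of receptor tyrosine kinase signalling, was at 0.49, while Six2, the factor that maintains progenitors, was at -0.33 and Bmp7, a survival factor of the mesenchyme, at -0.23. Of the WT1 targets in podocytes, 8 of 9 had enough counts, with 1 higher and 1 lower (median -0.16). The actin-associated Synpo was at 3.81 and 6.57 CPM, a log2 ratio of 0.79 (0.30 to 1.30), and Nphs1 at 7.25 and 3.10 CPM, a log2 ratio of -1.23 (-1.72 to -0.74). Foxc2 was at 0.27. The counts of 2 higher and 1 lower among 22 promoters stand beside 12.0% and 12.6% of all regions. Wnt4, Six2, Nphs1 and Synpo were also markers for naming the clusters, so they took part in choosing the nuclei compared.

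Across 31 cluster-by-library points with at least 100 nuclei, the promoters whose log2 level was most like that of the Wt1 promoter were those of Frzb, a secreted Wnt antagonist (Pearson r = 0.88), Jakmip1 (0.86), Slit3, a guidance ligand (0.84), Pdzd2 (0.84) and Sobp (0.84), out of 12447 genes, of which 15 were over 0.8. The points share 2 libraries and differ in depth. Among the elements of the window, the level across the same points followed the promoter most closely at -8.9 kb (r = 0.81), +80.1 kb (0.81) and -12.0 kb (0.80) and least at -17.9 kb (0.28), +62.8 kb (0.32) and -29.3 kb (0.39). Of the other 3 elements that were higher in Enl-T1 progenitors, r was 0.59 at -49.4 kb, 0.56 at +73.7 kb and 0.49 at +94.2 kb.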

How the data were processed

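snATAC-seq was measured in 2 libraries, 1 per group, so no comparison was tested. According to the submitters' processing notes, the authors used Cell Ranger ATAC 2.1.0 and mm10. The deposited tables hold counts of cut ends per peak and barcode, with peaks called in each library separately, so that the regions, their widths and thus the counts differ between libraries. The libraries were not integrated, and doublets were kept (an alternative removed 730 and 1352 nuclei).

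Peaks overlapping by 1 bp or more were joined (bedtools 2.31.1). Nuclei were clustered on both libraries together (LSI components 2 to 30, 15 neighbours, Leiden resolution 1, leidenalg 0.10.2, scikit-learn 1.9.0) and a cluster was named where at least 3 of a class's markers were raised by 0.4 on the log2 scale over the median cluster. That threshold was lowered from 0.5 after the largest cluster, cluster 0, had stayed unnamed. At 0.5 only 1157 Enl-T1 nuclei were progenitor-like, against 4261 at 0.4, and 3348 were unnamed. Most of the Enl-T1 side of the progenitor ratios therefore rests on the lowered threshold. The definition of leading genes was also changed after the data were seen. Regions with at least 200 counts summed over the groups compared were read, with 1.5-fold between libraries and 2-fold between classes as the limits. A region high in 1 group could thus enter through that group alone. CPM divides by counts in shared regions. Intervals are exact Poisson on fragments (2 counts each) and exact Clopper-Pearson for shares (scipy 1.17.1). Depth bears on sparse elements most, since 83 counts are about 40 fragments. Named were the members, every protein-coding gene starting within 1 Mb, the 2 highest and 2 lowest of each list, and the 5 promoters most like Wt1. An item that this rule would name and a stretch of sequence are not reported here. Sequences came from the mm10 RefSeq genome, since the promoter table used here had no entry for Wt1. Only the ratios between libraries and their intervals were tested on simulated data, which were drawn with counting error alone. Clustering, naming and the joining of peaks were not. The members, lists and tests were chosen with earlier results of these data known. Alternatives covered scaling, count minimum, cluster resolution, doublets, overlap, region width and class naming, and some were added after seeing the data.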

Additional observations from a re-analysis of the deposited data

How the results depend on the processing

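No paired analysis was possible because each group is 1 library. Of the values that answer a comparison, 104 recomputed values moved by less than their counting interval and 14 by more, and none of those called past a fold limit turned in direction. The stroma-like log2 ratios moved most. For the locus the ratio was 0.14 with Enl-T1 nuclei classed by their nearest Enl-WT nuclei and 0.013 without clusters 9, 10 and 12, an alternative chosen after seeing the data. For the stromal promoter these gave 0.064 and 0.024, and per kb of width it was -0.17. The progenitor promoter ratio was -0.37 with the naming threshold of 0.5, 0.030 per kb and -0.40 for cluster 8 alone. The log2 ratio of stroma-like over ureteric epithelium-like nuclei in Enl-WT was 1.02 with median-of-ratios scaling and 0.99 with regions overlapping reciprocally by 80%, and in Enl-T1 it was 1.36 with nearest-neighbour classes and 0.80 with the reciprocal overlap. The progenitor shares without thinning were 79.9% and 69.1%. The causes were not tested. The progenitor locus ratio ranged from 0.04 to 0.12 over the 13 alternatives in which it was recomputed, and per kb of covered length it was 0.17.

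Among single elements 112 recomputed values moved by less than their interval and 11 by more. In progenitor-like nuclei the -49.4 kb ratio ranged from 1.42 to 2.09, the +94.2 kb ratio from 1.35 to 2.28 and the +73.7 kb ratio from 1.03 to 1.58, past 1.5-fold in all 14 alternatives. The -29.3 kb ratio ranged from 0.54 to 1.03 (past in 12 of 14), the -37.8 kb ratio from -1.78 to -0.42 (11 of 13) and the -25.8 kb ratio from -0.97 to -0.28 (8 of 13). In stroma-like nuclei the -17.9 kb ratio ranged from 0.24 to 0.91 (8 of 14) and the +12.3 kb ratio from -0.83 to -0.33 (11 of 13). The -37.8, -25.8 and +12.3 kb elements have no value under the reciprocal overlap, since their regions overlap by less than 80%. With 1 library per group, the spread between kidneys is unknown, and a difference between libraries cannot be told apart from one between genotypes.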

Other observations

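The promoters of the lists of WT1 partners and targets were also read outside the progenitors. In stroma-like nuclei 1 of 9 WT1 targets in progenitors with enough counts was over 1.5-fold higher in Enl-T1, beside 7.16% of all regions, and this was Wnt4, at 18.4 CPM in Enl-WT and 29.4 CPM in Enl-T1, a log2 ratio of 0.68 (95% counting interval 0.48 to 0.87). In ureteric epithelium-like nuclei, where Cre is not active, 1 of 5 WT1 targets in podocytes was higher, beside 3.64% of all regions, and this was Synpo, at 5.43 and 12.1 CPM, a log2 ratio of 1.16 (0.57 to 1.77). Synpo thus differed in a class without Cre as well as in progenitors. The WT1 partners had 0 past 1.5-fold in stroma-like, ureteric epithelium-like and endothelial-like nuclei. These are values of 1 library per group, with no test, and Wnt4 and Synpo were also markers for naming the clusters.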
